A study of Homo sapiens with 18 samples.

Results

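U2OS is an osteosarcoma line, derived from a bone tumour whose cells are related to the osteoblast. The levels of 10 osteoblast genes in these cells are described here, comprising the transcription factors RUNX2, SP7, DLX5 and MSX2, the enzyme gene ALPL, the matrix genes SPARC, SPP1, IBSP and BGLAP, and the secreted receptor gene TNFRSF11B. The 10 genes were chosen by name. Of these, 7 had a value among the 26702 genes of the tables, and 3 (SP7, IBSP and DLX5) had no value.

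The RNA-seq libraries were made from polyadenylated RNA of 18 samples in 6 groups of 3. Cells received siControl, siANKRA2 or siRFXANK, and each of these was combined with DMSO solvent or with 10 µM Nutlin-3a for 24 h. Nutlin-3a is an inhibitor of MDM2 that raises p53. ANKRA2 and RFXANK encode related proteins built of ankyrin repeats. All groups share the U2OS background, transfection with an siRNA and exposure to DMSO or Nutlin-3a, and no untransfected group is labelled. The labels name no individual siRNA sequence, and do not state whether replicates were separate cultures. For the siRFXANK samples the labels add a wild-type genotype, the tissue bone and the cell type epithelial.

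Osteoblasts arise from mesenchymal precursors in a sequence of steps. RUNX2 starts the programme, SP7 (osterix) acts after it, and the homeodomain factors DLX5 and MSX2 act in skeletal patterning and in the response to BMP signals. Early osteoblasts make type I collagen and alkaline phosphatase, and mature osteoblasts add IBSP (bone sialoprotein) and BGLAP (osteocalcin), which are held as markers of mineralising cells.

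The measure available for every gene was the authors' mean normalized count, 1 value pooled over the libraries of their model. A level below is this pooled mean, and levels of different genes are compared only after division by the merged exon length in kb. No value per library or per group was used, so no level carries an SD, an n or a test, and nothing can be said from it about siRNA or Nutlin-3a effects. Sequencing depth per library is unknown. The pooled mean of a gene was identical in each of the 6 tables listing it. The lowest pooled mean in a table ranged from 0.714 to 2.34 normalized counts. Of the 26702 genes, those left out of a table all had a pooled mean under its lowest one. Genes in none of the tables have no mean to compare.

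The siRNA target ANKRA2 had a pooled mean of 31568 normalized counts, a level per kb at the 99.8th percentile of 15940 protein-coding genes. That of RFXANK was 758, at the 74.2nd percentile per kb. Which libraries entered the pooled mean is not stated, but the same mean was shared by 6 comparisons that together name all 6 groups. The means of ANKRA2 and RFXANK thus take in libraries that received the siRNA against each. The knockdown was not checked here, since the authors' comparison columns were not used. The level per kb of ANKRA2 was 1.95 times that of SPARC, the highest osteoblast gene.

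The 7 genes fell into 3 ranges. SPARC was far above the median of protein-coding genes, BGLAP was far below it, and TNFRSF11B, MSX2, SPP1, RUNX2 and ALPL lay between the 38.1st and 70.0th percentiles. The median of the protein-coding genes was 101 normalized counts per kb. Of the 7 genes, 3 (SPARC, TNFRSF11B and MSX2) were above it and 4 were below it. These percentiles are relative to genes with a value, which made up 79.9% of the protein-coding genes annotated.

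**Figure D1:**
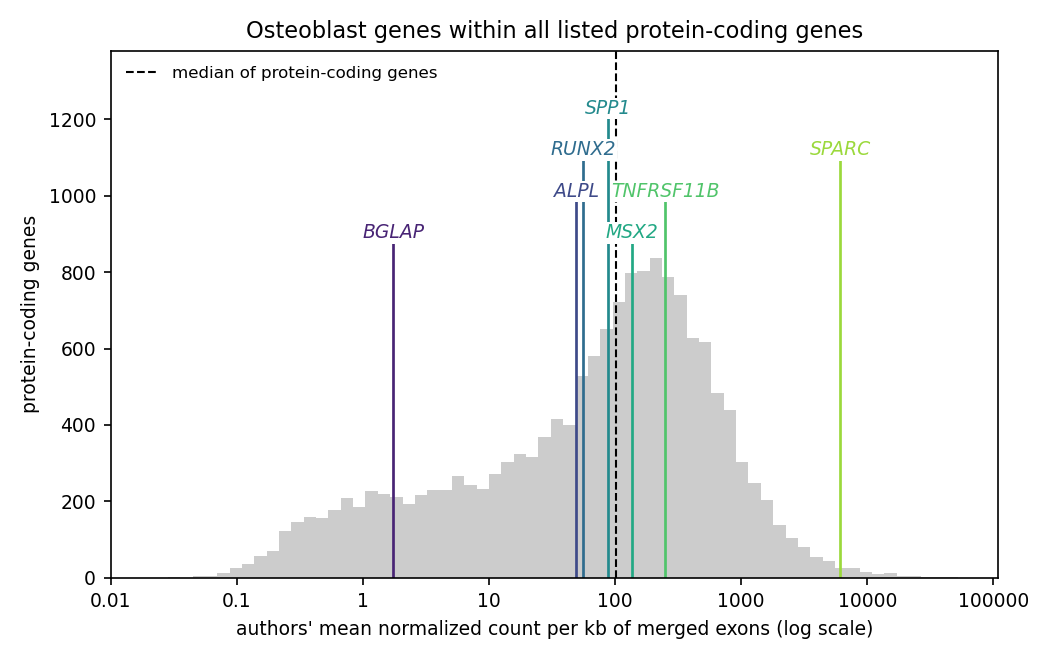
Histogram of the authors' mean normalized count per kb of merged exons (horizontal axis, log scale) over 15940 protein-coding genes (vertical axis, number of genes), with a coloured line for each of the 7 osteoblast genes that had a value and a dashed line at the median of 101. SPARC stood in the upper tail at 6097 per kb, BGLAP in the lower tail at 1.75 per kb, and the other 5 lay around the centre.

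Among the transcription factors, RUNX2 is the runt-domain protein without which bone is not formed. It spans bases 45328157 to 45664349 of chromosome 6 (plus strand, GRCh38, GENCODE 29), with 13 annotated transcripts. The pooled mean was 454 normalized counts, and the level per kb was 55.5, at the 39.9th percentile. Both other RUNX genes had a higher level per kb, 165 for RUNX1 and 65.0 for RUNX3. RUNX1, known for its role in blood formation, was thus at 2.98 times the level of RUNX2. CBFB, the partner subunit that all RUNX proteins share, was at 628 per kb, 11.3 times RUNX2. A spread between libraries was not available for these ratios, so whether the closer pair, RUNX3 and RUNX2, differs beyond it cannot be told. The order of that pair also rests on the length used. By pooled mean without length, RUNX3 was the lower, at 294 against 454 for RUNX2. Ratios between genes were not recomputed with the longest transcript as length.

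MSX2, a homeodomain repressor with a role in skull bone growth, spans bases 174724533 to 174730893 of chromosome 5 (plus strand). Its pooled mean was 310 and its level per kb was 136, at the 56.4th percentile. The related MSX1 was at 314 per kb, 2.30 times MSX2. Of the longest MSX2 transcript, 9.59% of 31-base stretches also occur in transcripts of other genes, its pseudogene MSX2P1 among them, so some reads can be split. The DLX relatives of DLX5, which itself had no value, were mostly low. DLX4 was at 116 per kb, whereas DLX2 was at 2.77 and DLX1 at 1.94, and DLX3 and DLX6 had no value. Of the SP family, to which SP7 belongs, the broadly used SP1 and SP3 were at 372 and 314 per kb, and SP4 was at 48.5.

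Other regulators of the osteoblast were present in part. Of 7 further factors, 4 had a value, against 79.9% of all annotated protein-coding genes. Of these 4 factors, 3 were above the median. ATF4, a factor of osteoblast amino acid supply and of the stress response, was the highest at 5026 per kb, and CBFB and MSX1 were the other two above it. TWIST2, a factor that restrains RUNX2 in early precursors, was at 84.0. DLX3, DLX6 and TWIST1 had no value.

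ALPL encodes the tissue-nonspecific alkaline phosphatase, which removes pyrophosphate and so permits mineral growth. The gene spans bases 21509372 to 21578412 of chromosome 1 (plus strand). Its pooled mean was 148 and its level per kb was 49.3, at the 38.1st percentile. It exceeded the tissue-restricted relatives with a value, placental ALPP at 18.9 and ALPG at 1.63 per kb. ALPI had no value. The ALPL level was 2.61 times that of ALPP. No 31-base stretch of the longest ALPL transcript occurs in another gene.

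SPARC (osteonectin) is a collagen-binding glycoprotein that is abundant in bone matrix but is made by many mesenchymal cells. It spans bases 151661096 to 151687165 of chromosome 5 (minus strand). Its pooled mean was 29456 normalized counts and its level per kb was 6097, at the 99.4th percentile. Only 90 of the 15940 protein-coding genes had a higher level per kb. The level was 24.3 times that of TNFRSF11B, the next of the osteoblast genes. SPARC alone gave 94.2% of the summed pooled means of the 7 genes, which is a sum not corrected for length. Its relatives were much lower, at 48.0 per kb for SMOC1, 16.3 for SMOC2 and 0.219 for SPARCL1. The SPARCL1 value came from a pooled mean of 0.762, near the lowest one listed (0.714). The antisense gene CLMAT3 covers 7.89% of the SPARC exons but had a pooled mean of 0.942. Whether counting used strand is not given in the sources used here.

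SPP1 (osteopontin) is a phosphorylated matrix protein with an integrin-binding motif, made by osteoblasts and by many other cells. It spans bases 87975650 to 87983426 of chromosome 4 (plus strand). The pooled mean was 204 and the level per kb 87.7, at the 47.3rd percentile. SPP1 belongs to a cluster of acidic bone and tooth matrix genes, the SIBLING genes, with DSPP, DMP1, IBSP and MEPE upstream of it. IBSP ends 163 kb before SPP1 starts. SPP1 was the only 1 of the 5 SIBLING genes with a value, and IBSP, DMP1, MEPE and DSPP had none. The genes flanking the cluster had values on both sides. PKD2, which starts 32.0 kb after the start of SPP1, was at 129 per kb and ABCG2 beyond it at 22.7. On the other side, SPARCL1 was at 0.219 per kb, NUDT9 at 263 and HSD17B11 at 396. With a pooled mean of 0.762, SPARCL1 was near the lowest mean listed, 0.714.

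**Figure D2:**
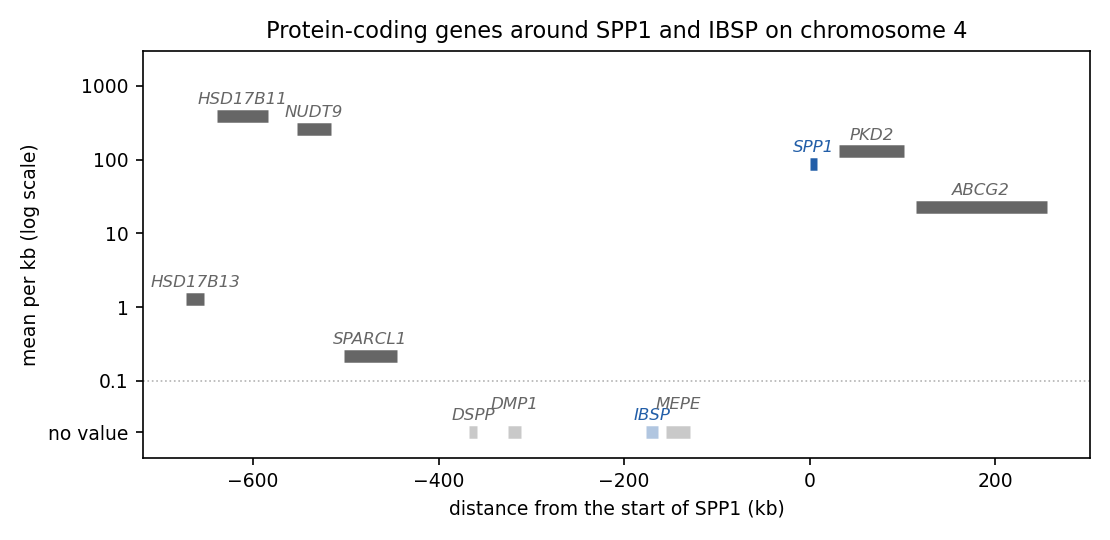
Protein-coding genes around SPP1 and IBSP on chromosome 4, each drawn as a bar from its start to its end (horizontal axis, kb from the start of SPP1) at the height of its mean normalized count per kb (vertical axis, log scale). The bone genes SPP1 and IBSP are in blue, and pale bars below the dotted line mark genes without a value. SPP1 at 87.7 per kb was close to its neighbour PKD2 at 129, and the 4 genes with pale bars lie between SPARCL1 and SPP1.

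BGLAP (osteocalcin), the vitamin K-dependent protein released by mature osteoblasts, had the lowest value. The gene spans bases 156241962 to 156243321 of chromosome 1 (plus strand), and was listed in 5 of the 6 tables. Its pooled mean was 2.08 normalized counts and its level per kb was 1.75, at the 11.7th percentile. The level of SPARC was 3487 times as high. A mean of this size is near the minimum of the tables, and its counting error is unknown. The read-through gene PMF1-BGLAP shares 33.4% of the BGLAP exons on the same strand, so reads there can belong to either gene. PMF1-BGLAP itself had no value. How reads in shared exons were counted is not given in the sources used here, and the BGLAP level and its ratios were not corrected for it. PMF1, which lies directly upstream, was at 162 per kb, 92.5 times BGLAP. MGP, the related Gla protein of cartilage and vessel wall, was at 0.520 per kb, from a pooled mean of only 1.37.

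TNFRSF11B (osteoprotegerin) is a soluble decoy receptor that binds RANKL, the signal for osteoclast formation. It spans bases 118923557 to 118952200 of chromosome 8 (minus strand). The pooled mean was 708 and the level per kb 251, at the 70.0th percentile, the second highest of the 7 genes. CSF1, the growth factor that osteoclast precursors also need, was at 206 per kb, so that TNFRSF11B was at 1.22 times its level. By pooled mean without length the order was reversed, at 1116 for CSF1 against 708 for TNFRSF11B. With no spread between libraries, whether they differ cannot be told. The RANKL gene TNFSF11 and the receptor gene TNFRSF11A had no value.

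In the order of levels per kb, SPARC was followed by TNFRSF11B, MSX2, SPP1, RUNX2, ALPL and BGLAP. The steps from TNFRSF11B down to ALPL were small, with ratios between neighbours of 1.84, 1.56, 1.58 and 1.13, whereas ALPL was 28.2 times BGLAP. With no spread between libraries, whether neighbours in the middle of this order differ cannot be told. The definition of the level moved the middle of the order. MSX2 was at the 56.4th percentile per kb but at the 40.6th by the pooled mean without length, and RUNX2, whose merged exons span 8192 bases, moved from the 39.9th to the 46.7th. By pooled mean without length, 2 of the 7 genes (SPARC and TNFRSF11B) were above the median of protein-coding genes.

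**Figure D3:**
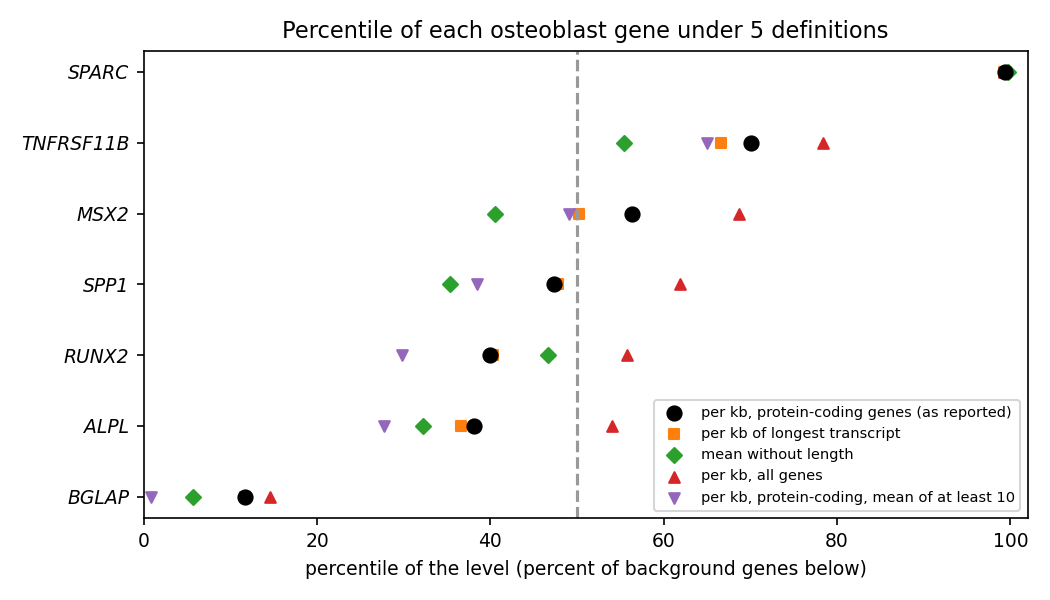
Percentile of each of the 7 osteoblast genes (horizontal axis, percent of background genes below it) under 5 definitions of level and background, shown by symbol, with the 50th percentile dashed. SPARC stayed above the 99th percentile and BGLAP under the 15th in all 5, while MSX2 lay on either side of the middle, from 40.6 to 68.6.

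The bone matrix beyond the chosen genes was uneven. Of 17 further matrix and mineralisation genes, 15 had a value and 4 of these were above the median. COL1A1, the α1 chain of type I collagen and the main protein of bone, was at 6522 per kb, which is 1.07 times SPARC, with no spread to judge this ratio. COL1A2, the chain that joins it in the usual collagen trimer, was at 2.97 per kb. The COL1A1 level was thus 2195 times that of COL1A2, and SPARC was at 2052 times COL1A2. The other genes above the median were the phosphate transporters SLC20A1 (1804 per kb) and SLC20A2 (127 per kb) and FN1 (fibronectin, 759 per kb). Among mineralisation genes, PHOSPHO1 was at 67.3 and ANKH at 93.3, both under the median, and ENPP1 was at 16.1. The place of ANKH rests on the length used. By pooled mean without length it was at the 67.2nd percentile, and 5 genes of this list were above the median instead of 4. The small proteoglycan genes were low, with LUM at 14.0, BGN at 1.79 and DCN at 0.0585 per kb. The DCN pooled mean of 0.751 was near the lowest one listed, 0.714. POSTN (periostin) was at 2.43 and PHEX, a peptidase of osteoblasts and osteocytes, at 1.19.

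All 11 genes of a list of osteoblast signal components had a value, against 79.9% of all annotated protein-coding genes. Of the 11, 7 were above the median, beside 50% of protein-coding genes with a value by definition. BMP4 was the highest at 583 per kb, followed by LRP6 at 390, and BMP2 was at 151. The vitamin D receptor gene VDR, which acts on BGLAP and SPP1 in osteoblasts, was at 122. PTH1R, the parathyroid hormone receptor of mature osteoblasts, was the lowest at 1.06, from a pooled mean of only 2.93. Of 6 osteocyte genes, only PDPN (213 per kb) and PHEX had a value.

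**Figure D4:**
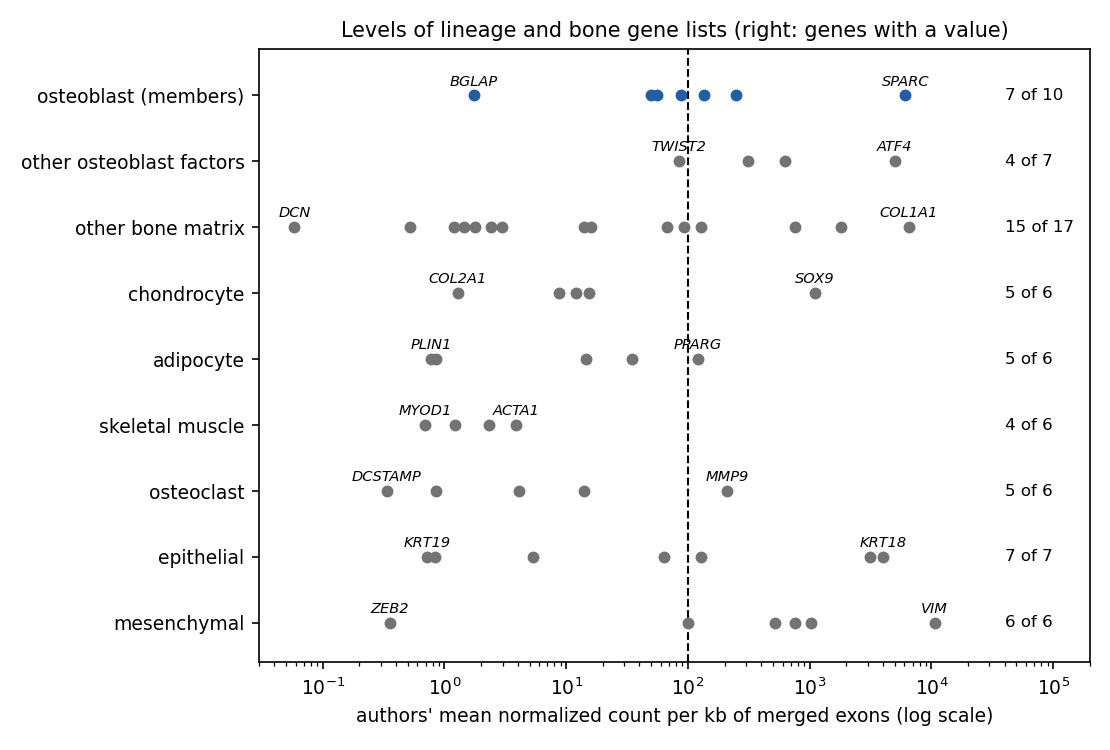
Mean normalized count per kb (horizontal axis, log scale) of each gene with a value in 9 gene lists (rows), with the osteoblast genes in blue, the median of protein-coding genes dashed, the highest and lowest gene of each row named, and the number of genes with a value of all genes in the list at the right. The osteoblast genes reached from 1.75 to 6097 per kb, and the 4 muscle genes all lay below 4 per kb.

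The cell type label of the siRFXANK samples was set beside markers. By the pooled mean, 3 of 7 epithelial markers were above the median, namely KRT18 (4027 per kb), KRT8 (3118) and CLDN4 (127). EPCAM, which defines many epithelia, was at 63.8, CDH1 (E-cadherin) at 5.33, and KRT5 and KRT19 were below 1 per kb. Of 6 mesenchymal markers, 4 were above the median, with VIM (vimentin) at 10668 and CDH2 (N-cadherin) at 1030 per kb. ZEB1 was at 100 and ZEB2 at 0.357. These values do not separate the siRFXANK samples from the others. Of the 2 markers of mature osteoblasts, BGLAP was at the 11.7th percentile per kb and IBSP had no value.

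RUNX proteins bind DNA at a short core, and promoters of bone genes are known to carry it. RefSeq promoter windows (GRCh38.p14, 250 bases before to 50 after the start) were matched for 7 of the 10 genes, with 10 windows in all. The 7 genes were RUNX2, ALPL, SPP1, IBSP, BGLAP, SPARC and MSX2. No window of TNFRSF11B, SP7 or DLX5 was among them, so nothing is said here of their promoters. The letters ACCACA, or TGTGGT on the other strand, were present in 3 of the 10 windows and in 13.1% of all 35116 windows, or 10.7% of the windows of protein-coding genes with a value. These were the window of the distal RUNX2 start and those of SPP1 and BGLAP, and the matched stretches are shown because these genes cover the start of the programme, a widely made product and its late marker. The RUNX2 window held 4 matches, 2 of them before the start and 2 within 8 bases of each other after it. A stretch has 30 bases on the plus strand of GRCh38.p14, and capitals mark the core, or TATAAA where named.

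The stretches, each with its position, were as follows.
RUNX2, chr6:45328127-45328156: aggaaaggccttACCACAagccttttgtga
RUNX2, chr6:45328231-45328260: gtgaggtcacaaACCACAtgattctgcctc
RUNX2, chr6:45328334-45328363: gcctcacaaacaACCACAgaACCACAagtg
SPP1, chr4:87975560-87975589: ttttttgttttaACCACAaaaccagagggg
BGLAP, chr1:156242009-156242038: ccgcagctcccaACCACAatatcctttggg
BGLAP TATAAA, chr1:156242144-156242173: cagcccagagggTATAAAcagtgctggagg

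The core of BGLAP starts 163 bases and that of SPP1 142 bases before the transcription start. TATAAA was found in the direction of the gene only in the BGLAP window. Its reverse form TTTATA was in the IBSP window and, for ALPL, in the second window only. Either form was present in 11.5% of all windows, or 7.16% of those of protein-coding genes with a value. The windows of SPARC and MSX2 held neither the RUNX core nor these letters. So the core was present beside genes of middle level (the distal RUNX2 start and SPP1) and of very low level (BGLAP). It was not found in the proximal RUNX2 window, in any ALPL window, or in those of MSX2, IBSP and SPARC. Whether the core goes with level was not tested. A match describes these letters in this window only. The GC content was 42.7% at the distal and 76.0% at the proximal RUNX2 start, whose transcripts the pooled mean does not separate.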

How the data were processed

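Gene tables of 18 polyadenylated RNA libraries were used. Per the labels' processing notes, the authors used Trimmomatic 0.39, cutadapt 2.10, SAMtools 1.10, featureCounts 1.6.5 and DESeq2 1.20.0 with hg38, and the aligner is not given in the sources used here. The deposited tables hold, per gene, a signal value, the authors' mean normalized count pooled over the samples of their model, and the authors' fold changes, standard errors, statistics and p-values for 6 comparisons. These comparison columns were not used. Therefore no comparison between groups was made.

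Gene IDs were matched to GENCODE 29 (26659 of 26702). The pooled mean was divided by the merged exon length and ranked among protein-coding genes. Alternatives were the longest transcript, no length, all genes, and a minimum mean of 10. Python 3.11.15 and pandas 2.3.3 were used, and the length and rank steps were tested on simulated data. Named genes are the 10 osteoblast genes, genes of the lists, and annotated neighbours, and 1 listed gene is not reported here. The genes and lists were chosen with earlier results of these data known, and the promoter letters and the genes flanking SPP1 after the values were seen. Depth per library is unknown, so no counting error is given.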

Additional observations from a re-analysis of the deposited data

How the results depend on the processing

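No paired analysis was possible because the values used are 1 pooled mean per gene. Leaving out replicates was not possible for the same reason, and no test was made, since the authors' comparison columns were not used. Against all genes in place of protein-coding genes, 6 of the 7 osteoblast genes were above the median instead of 3, as were 2 adipocyte genes instead of 1. With a minimum mean of 10, no adipocyte gene was above the median (0), and without length no osteoclast gene was (0). BGLAP moved from the 11.7th percentile to 5.65 without length and to 0.785 with a minimum mean of 10. Of 65 values recomputed, 59 stayed within 1.5 times and 6 moved by more, and the longest transcript as length moved none of them so far. The low-mean minimum of the tables limits what can be said of genes without a value.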

Other observations

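Genes of other mesenchymal fates, and of the osteoclast, which comes from the monocyte lineage, were set beside the osteoblast genes. Of the chondrocyte markers, SOX9, the factor that starts cartilage formation, was at 1104 normalized counts per kb, at the 93.6th percentile and far above RUNX2 at 55.5. The cartilage matrix genes ACAN and COL2A1 were at 12.0 and 1.29 per kb, and SOX5 and SOX6 at 15.5 and 8.79. Of the adipocyte markers, PPARG was at 121 per kb and CEBPA at 34.8, while the lipid genes LPL, FABP4 and PLIN1 were at 14.6, 0.854 and 0.780. The 4 muscle genes with a value ranged from 0.695 (MYOD1) to 3.88 (ACTA1). Of the osteoclast genes, MMP9 was at 209 per kb, CTSK at 14.1, ACP5 at 4.06, CALCR at 0.845 and DCSTAMP at 0.336. Some of these genes were near the lowest pooled mean listed (0.714), with pooled means of 0.933 for DCSTAMP, 1.19 for FABP4 and 1.25 for MYOD1. These values rest on the authors' pooled means and were not tested.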
